A study of Mus musculus with 6 samples.

Results

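The genes described here are those of the chemokine CCL21 (Ccl21a, Ccl21b and Ccl21c) and 5 genes used to mark the endothelium of lymphatic vessels (Lyve1, Flt4, Pdpn, Mmrn1 and Reln). They were taken by gene symbol from the deposited table with no filter on expression, and all 8 were found among its 16759 genes. Hind leg muscle came from male C57BL/6J mice that were 8 weeks old at the start. The 3 control mice (Con) were not trained. The 3 exercise mice (EX) trained on a treadmill in daily sessions of 60 min, 5 days per week during 6 weeks, covered 22 km each, and gave tissue 24 h after the final session. All mice were perfused with PBS, fat between the muscles was removed, and 1 library was made from a small piece of muscle per mouse, so each value is a mixture of every cell type in that piece. The 8 genes were chosen by their read counts in EX against Con, which were known beforehand, so for them this contrast is described without a test.

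Lymphatic capillaries drain fluid and immune cells from tissues. Their endothelial cells release CCL21, which binds the receptor CCR7 on dendritic cells and T cells and guides them into the vessel and on to the lymph node. Flt4 encodes VEGFR3, the receptor through which VEGF-C and VEGF-D make lymphatic vessels grow, and Lyve1 encodes a hyaluronan receptor that is found on lymphatic capillaries and also on a subset of tissue macrophages. Pdpn encodes podoplanin, a ligand of the platelet receptor CLEC-2, and is also made by fibroblasts of lymphoid tissue and by perineurial cells. Mmrn1 encodes multimerin 1, which is secreted by endothelial cells and stored in platelets. Reln encodes reelin, a secreted protein best known from the migration of neurons, which collecting lymphatic vessels also release.

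In the mouse, CCL21 is encoded by several nearly identical genes close together on chromosome 4, and their sequences are shown because they bear on how reads can be told apart. The 250 bases upstream of the start of Ccl21a in RefSeq (chr4:42773992-42774241, minus strand, build GRCm38.p6) are given first, 5′ to 3′, with the bases at which further copies differ in capitals.
Ccl21a upstream: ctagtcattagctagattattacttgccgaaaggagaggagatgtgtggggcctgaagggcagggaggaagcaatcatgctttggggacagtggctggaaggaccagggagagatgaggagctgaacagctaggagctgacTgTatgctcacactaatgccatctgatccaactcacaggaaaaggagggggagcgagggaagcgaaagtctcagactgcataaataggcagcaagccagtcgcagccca
The stretch from 129 to 87 bases upstream of that start holds every difference from 3 further copies, named Gm21541, Gm13304 and Gm10591.
Ccl21a: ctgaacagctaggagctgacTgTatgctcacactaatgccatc
Gm21541: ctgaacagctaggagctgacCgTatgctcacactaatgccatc
Gm13304: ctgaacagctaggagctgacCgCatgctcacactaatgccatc
Gm10591: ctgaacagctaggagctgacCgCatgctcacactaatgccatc
Over the 249 upstream bases compared, Gm21541 differed from Ccl21a at 1 base, and Gm13304 and Gm10591 at 2. Upstream of Ccl21b, RefSeq places another start, and 166 of 247 aligned bases differed there. RefSeq upstream sequences were matched by gene number for 6 of the 8 genes, and Ccl21c and Lyve1 had none in the table used.

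Over 402 coding bases, Ccl21b, Gm21541, Gm13304 and Gm10591 each carried the same substitutions against Ccl21a in GENCODE transcripts of GRCm38, T84A in exon 2 and C194T in exon 3, with positions counted from 1 at the A of the start codon and the base of Ccl21a written first. In Ccl21a these bases lie at positions 42773747 and 42773543 of chromosome 4, minus strand. The windows around them are shown with the differing base in capitals, since reads that span neither these nor other differing bases cannot be assigned to 1 copy.
Ccl21a, coding bases 69 to 99: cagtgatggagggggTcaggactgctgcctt
The 4 copies, coding bases 69 to 99: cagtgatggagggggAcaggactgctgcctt
Ccl21a, coding bases 179 to 209: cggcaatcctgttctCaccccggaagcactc
The 4 copies, coding bases 179 to 209: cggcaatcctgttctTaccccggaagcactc
Of the 721 windows of 150 bases in the Ccl21a transcript, 243 (33.7%) occurred letter for letter in another copy, and 150 bases is the length of 1 read of a pair in this study.

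The deposited counts showed this sharing. Counts that were not whole numbers were present in all 6 libraries for Ccl21a, in 5 for Ccl21c and in 2 for Ccl21b, whereas those of Lyve1, Flt4, Pdpn, Mmrn1 and Reln were whole in every library. The row of Ccl21c held the same count as the rows of Gm13304, Gm21541 and Gm10591 in each library, so 4 rows carried 1 set of values. Over the whole table, 465 of 16759 rows were not whole in every library, 1127 were not whole in at least 1, and 8 sets of rows, with 19 rows between them, shared identical counts that were not whole and summed to over 5. The value of a single Ccl21 row is therefore an estimate of how shared reads were split, and only the sum over the 6 rows is free of that split among them.

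Gene counts totalled 13845362 to 15585048 per Con library and 16080487 to 16240431 per EX library. Levels are given as CPM, rounded counts over a TMM-scaled library total, within a gene, and as TPM, which also accounts for gene length, between genes. A count of 0 allows up to 3 counts, or 0.188 to 0.214 CPM depending on the library, and this limit covers counting error only. In a fit of the whole table with edgeR's quasi-likelihood test, 2013 of 16716 genes with a count passed an adjusted p-value of 0.05 (12.0%), 1016 of them higher (6.08%) and 997 lower (5.96%) in EX. Of these calls 50.5% were higher, a share that fell to 26.3% with library totals in place of TMM (635 higher, 1784 lower), to 31.7% and 32.5% with limma on log2(FPKM + 0.1) and log2(FPKM + 1), and to 21% with limma on log2(TPM + 0.1). The same fit called 5 of the 8 genes described here, 4 higher (Ccl21a, Ccl21c, Lyve1 and Mmrn1) and 1 lower (Ccl21b), and these counts only restate how the genes were chosen. All EX values lay above all Con values for those 4 (13.4% of all rows) and below them for Flt4 (13.3% of all rows). The same 4 were also past a fitted fold of 2, as were 6.69% of all genes tested.

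Ccl21a was the most abundant of the 8 per length in both groups. Its estimated counts were 56.74, 78.91 and 53.95 in Con replicates 1 to 3, and 215.59, 239.15 and 250.92 in EX replicates 1 to 3. Every EX value was more than double every Con value. The level was 4.15 ± 0.817 CPM (SD, n = 3) in Con and 14.9 ± 1.18 CPM (SD, n = 3) in EX, a 3.58-fold difference (log2 1.84, SE 0.12). In a bulk library, more cells of a type and more RNA per cell of that type cannot be told apart, which holds for every difference below.

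Ccl21c, with the identical rows it stands for, was lower. Counts were 3.32, 12.21 and 9.83 in Con and 27.42, 32.00 and 30.40 in EX, again without overlap. Con replicate 1 was the lowest of the 6 by a wide margin. The level was 0.533 ± 0.285 CPM in Con and 1.87 ± 0.168 CPM in EX (SD, n = 3 each), 3.40-fold higher (log2 1.77, SE 0.31).

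Ccl21b was nearly confined to 1 library. Its counts were 14.95, 0.57 and 0 in Con replicates 1 to 3 and 0 in all 3 EX libraries. Con replicate 1 was therefore the only library above the 3 counts that a 0 allows, and no fold change is given. The lower call of this row was absent without Con replicate 1, without any 1 of the 3 EX libraries, and with limma or limma voom, and DESeq2 gave this row no adjusted p-value. The library with counts on Ccl21b was also the one with the least on the identical rows. Of the summed Ccl21 counts, Con replicate 1 had 17.6% on Ccl21b and 15.6% on the 4 identical rows, whereas Con replicates 2 and 3 had 0.444% and 0% on Ccl21b and 38.1% and 42.2% on the identical rows.

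Summed over the 6 rows, the family reached 84.97, 128.32 and 93.27 counts in the Con libraries against 325.27, 367.15 and 372.52 in EX. The groups stood apart, and the split did not enter this value. The summed level was 6.67 ± 1.27 CPM in Con and 22.4 ± 1.73 CPM in EX (SD, n = 3 each), and fitted as 1 row the sum was 3.36-fold higher in EX (log2 1.75, SE 0.10). Ccl21a took 57.8% to 66.8% of the summed counts in Con and 65.1% to 67.4% in EX. These shares overlapped between the groups.

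**Figure D1:**
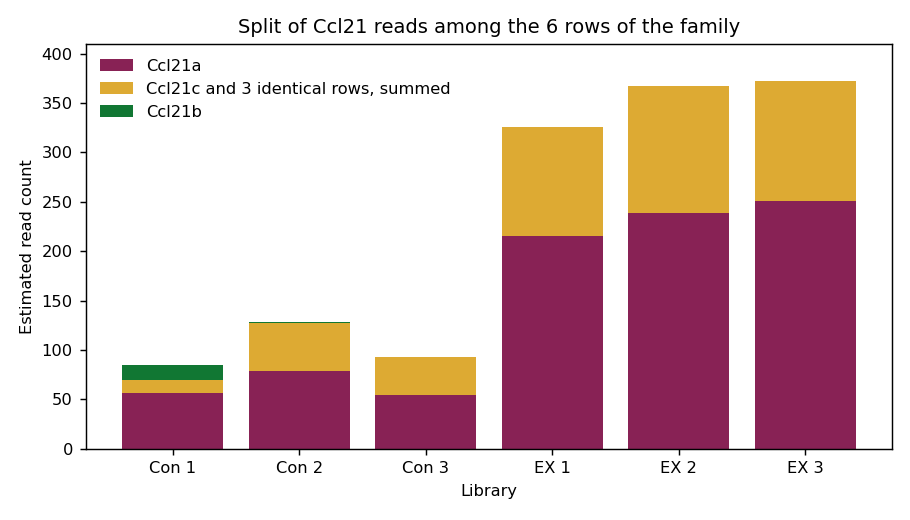
Estimated read count (vertical axis) of the Ccl21 rows in each of the 6 libraries (horizontal axis), stacked as Ccl21a, the 4 identical rows with Ccl21c, and Ccl21b. The 3 EX bars reach 325.27 to 372.52 counts against 84.97 to 128.32 in Con, and Ccl21b is visible as a block only in Con replicate 1.

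Lyve1 counts were 21, 22 and 18 in Con and 75, 61 and 62 in EX. The lowest EX library held well over double the count of the highest Con library. The level was 1.34 ± 0.190 CPM in Con and 4.17 ± 0.472 CPM in EX (SD, n = 3 each), a 3.12-fold difference (log2 1.64, SE 0.20). Mmrn1 counts were 14 in each Con library and 53, 48 and 54 in EX. The level was 0.920 ± 0.0663 CPM in Con and 3.26 ± 0.194 CPM in EX (SD, n = 3 each), 3.54-fold higher (log2 1.82, SE 0.22). Neither gene showed overlap between the groups, and their fold differences lay close to that of the summed Ccl21 rows.

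The receptor gene Flt4 did not follow them. Its counts were 255, 237 and 254 in Con and 224, 221 and 223 in EX. The EX libraries lay close together and just below all Con libraries. The level was 16.4 ± 1.61 CPM in Con and 14.1 ± 0.0433 CPM in EX (SD, n = 3 each), 0.863-fold (log2 -0.21, SE 0.08). The fit with library totals in place of TMM added Flt4 to the genes called, so that 6 of the 8 were called there.

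Pdpn counts were 42, 48 and 37 in Con and 45, 63 and 62 in EX. EX replicate 1 lay within the Con range, and the other two EX libraries lay above it. The level was 2.78 ± 0.404 CPM in Con and 3.58 ± 0.655 CPM in EX (SD, n = 3 each), 1.29-fold (log2 0.37, SE 0.18). Reln counts were 71, 90 and 72 in Con and 82, 60 and 58 in EX. EX replicate 1 again lay within the Con range, while EX replicates 2 and 3 lay below it. The level was 5.09 ± 0.598 CPM in Con and 4.21 ± 0.820 CPM in EX (SD, n = 3 each), 0.828-fold (log2 -0.27, SE 0.15). The groups overlapped for both genes.

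**Figure D2:**
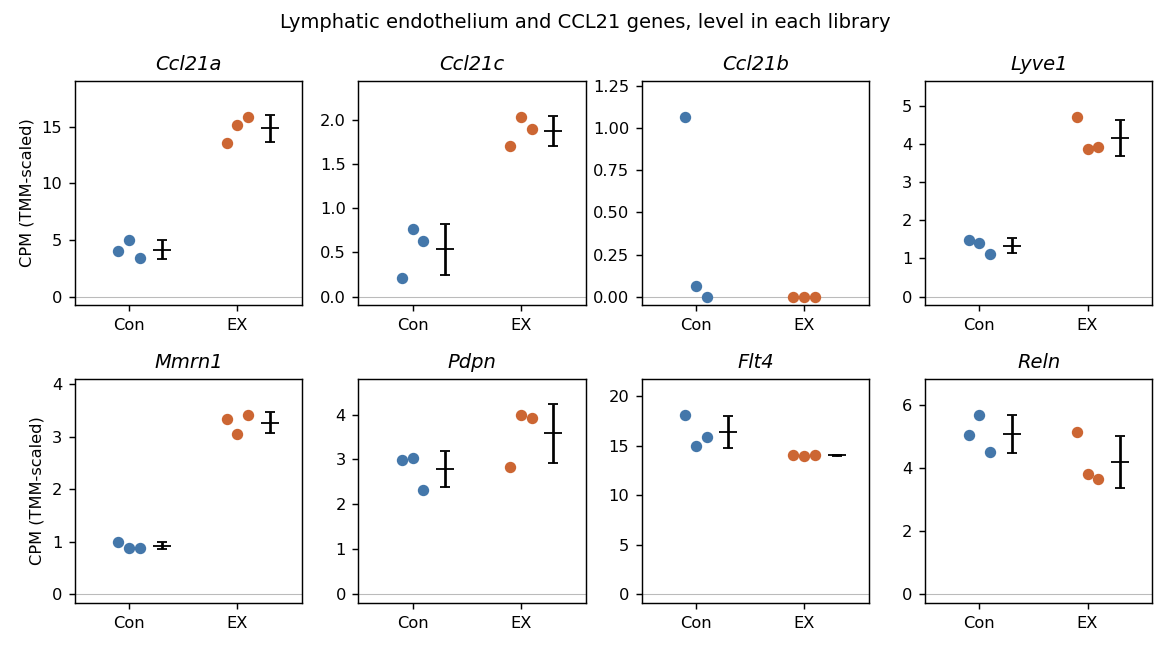
Level in CPM after TMM scaling (vertical axis of each panel, from 0) in the 3 Con and 3 EX libraries, with 1 panel per gene; points are libraries, and bars are the mean with the SD except for Ccl21b. Ccl21a, Ccl21c, Lyve1 and Mmrn1 stand apart between groups, Flt4 is slightly lower in EX, Pdpn and Reln overlap, and Ccl21b is above 1 CPM only in Con replicate 1.

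On the TPM scale, the order of levels changed between the groups. In Con it ran from Ccl21a (11.3 ± 2.14 TPM) through Flt4 (4.40 ± 0.426), Pdpn (2.72 ± 0.382), Ccl21c (1.49 ± 0.760), Ccl21b (1.06 ± 1.76), Lyve1 (0.870 ± 0.118) and Reln (0.663 ± 0.0751) to Mmrn1 (0.317 ± 0.0208), with SD over 3 libraries. Ccl21c and Ccl21b, Ccl21b and Lyve1, and Lyve1 and Reln were neighbours whose ranges met. In EX, Ccl21a (37.9 ± 2.61 TPM) was followed by Ccl21c (4.83 ± 0.315), Flt4 (3.55 ± 0.0681), Pdpn (3.28 ± 0.563), Lyve1 (2.54 ± 0.320), Mmrn1 (1.05 ± 0.0814), Reln (0.517 ± 0.107) and Ccl21b (0). Flt4 and Pdpn, and Pdpn and Lyve1, had ranges that met in EX. Mmrn1 lay below Reln in every Con library and above it in every EX library.

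The profile over the 6 libraries was compared with that of every gene with a mean of at least 1 CPM, by the Euclidean distance of log2(CPM + 0.1) centred on the Con mean. Among 12040 candidates, the closest to the summed Ccl21 rows were Mmrn1 (distance 0.484), the cardiac actin gene Actc1 (0.485) and the nuclear receptor gene Nr4a3 (0.569). For Lyve1, with 12039 candidates, they were Actc1 (0.329), Mmrn1 (0.388) and Slc25a25 (0.389), which encodes a mitochondrial ATP and phosphate carrier. These distances were computed over the 2 groups used to choose the genes and are a description.

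The other genes of lymphatic endothelium are 24 genes of a separate list, for which adjusted p-values of the edgeR fit are given. The lists, too, were chosen with earlier results of these data known. Of these, 1 rose, 4 fell and 19 did not pass (5 called, against 12.0% of all genes tested), and the median log2 fold change was -0.04, with -0.0035 over all genes. Piezo1, a mechanically gated ion channel needed for lymphatic valves, rose from 53.8 ± 1.14 to 67.3 ± 2.67 CPM (log2 0.32, SE 0.05, adjusted p = 4.5e-06, edgeR). Tie1, an endothelial receptor of the angiopoietin system, fell from 84.2 ± 0.812 to 72.2 ± 3.21 CPM (log2 -0.22, SE 0.05, adjusted p = 0.00066, edgeR). Gja4, the gap junction gene of connexin 37, fell from 6.85 ± 0.772 to 4.70 ± 0.552 CPM (log2 -0.54, adjusted p = 0.0034), Sox18, a transcription factor that acts upstream of Prox1, fell from 19.0 ± 0.991 to 15.7 ± 0.964 CPM (log2 -0.27, adjusted p = 0.015), and Ecscr, an endothelial surface protein, fell from 10.5 ± 0.898 to 8.47 ± 0.323 CPM (log2 -0.32, adjusted p = 0.0377). Piezo1 and Tie1 passed under all 17 alternatives, and the count of 5 fell to 2 without EX replicate 1 and with DESeq2, and to 3 when EX replicate 2 or 3, or Con replicate 2 or 3, was left out. All 5 genes are also made by blood endothelium.

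All EX values lay above all Con values for 4 of the 24 listed genes and below them for 4, against 13.4% and 13.3% of all rows. The 4 below were those called lower. Of the 4 above, Piezo1 was called. Itga9 (log2 0.18, adjusted p = 0.306, edgeR), Ptx3 (log2 0.22, adjusted p = 0.1184, edgeR) and Thy1 (log2 0.28, adjusted p = 0.1235, edgeR) were not. Another 5 of the 19 genes that did not pass are described for their known roles. Prox1, the transcription factor that sets and maintains lymphatic fate, had counts of 28, 26 and 43 in Con and 47, 38 and 42 in EX. The groups overlapped through Con replicate 3, at 2.11 ± 0.532 CPM in Con and 2.67 ± 0.272 CPM in EX (log2 0.34, SE 0.20, adjusted p = 0.329). Nrp2, the co-receptor of VEGFR3, was at 24.9 ± 0.724 CPM in Con and 24.7 ± 0.950 CPM in EX (log2 -0.01, SE 0.07, adjusted p = 0.948). Stab2, a hyaluronan scavenger receptor of sinusoidal and lymphatic endothelium, was at 42.5 ± 1.30 CPM in Con and 41.4 ± 2.0 CPM in EX (log2 -0.04, SE 0.06, adjusted p = 0.735). Foxc2 and Cldn11, a transcription factor and a junction protein of lymphatic valves, had at most 6 counts in any library, so a difference was not detectable at this depth. Prox1, Tbx1 and Nfatc1 are also used by muscle fibres or their precursors, so their level in a piece of muscle does not belong to lymphatic cells alone. The summed level of the 24 genes was 470.6 to 475.4 CPM in Con and 453.5 to 469.7 CPM in EX.

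**Figure D3:**
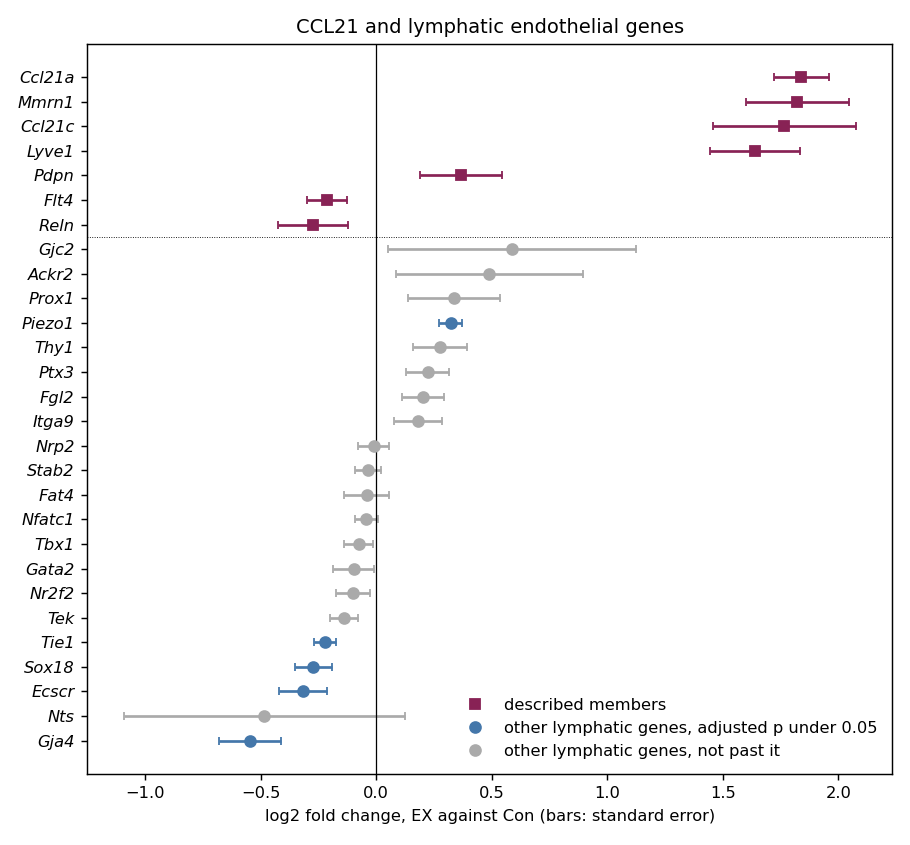
Log2 fold change of EX against Con (horizontal axis) with its standard error as bars, for 7 of the described genes above the dotted line (Ccl21b has none) and, below it, the 21 of 24 other lymphatic genes with at least 3 counts in every library. Ccl21a, Mmrn1, Ccl21c and Lyve1 lie between 1.64 and 1.84, whereas Piezo1 at 0.32 is the only one of the listed genes past the threshold on the higher side.

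The lymphatic growth signals were given by 13 genes, of which 1 rose, 4 fell and 8 did not pass. The 5 calls compare with 12.0% of all genes tested, and the median log2 fold change was -0.04. The main ligands of VEGFR3 were not called, Vegfc at 3.43 ± 0.237 CPM in Con and 3.69 ± 0.0964 CPM in EX (log2 0.10, SE 0.16, adjusted p = 0.743) and Vegfd at 5.28 ± 0.745 and 5.73 ± 0.538 CPM (log2 0.11, SE 0.14, adjusted p = 0.663). Cyp26b1, an enzyme that breaks down retinoic acid, rose from 12.1 ± 0.649 to 16.9 ± 0.898 CPM (log2 0.48, adjusted p = 4.4e-05, edgeR) and passed under all 17 alternatives. The VEGF receptors Nrp1 (log2 -0.17, adjusted p = 0.0075) and Kdr (log2 -0.14, adjusted p = 0.0228), both also in blood vessels, fell, as did the vasoactive peptide gene Adm (log2 -0.79, adjusted p = 0.0019) and Ramp2 (log2 -0.30, adjusted p = 0.0153), which encodes part of its receptor. Of the 17 alternatives, Adm and Ramp2 lost the call under 6 each, Kdr under 5 and Nrp1 under 3. The count of 5 was 3 when Con replicate 1 or EX replicate 1 was left out, and 2 when Con replicate 2, EX replicate 2 or EX replicate 3 was.

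On the CCR7 side, 10 genes were listed with a median log2 fold change of -0.02, and 8 of them had under 20 counts in every library. Counts of Ccr7, the receptor of CCL21, were 1, 0 and 1 in Con and 0 in each EX library. Ccl19, which encodes the other ligand of CCR7, was at 4.42, 2.01 and 6.92 counts in the Con libraries and at 3.27, 2.24 and 1.27 in EX, and like the Ccl21 rows its counts were not whole. Ackr4, a scavenging receptor that removes CCL21, had 1 count in each Con library and 7, 3 and 2 in EX (adjusted p = 0.202). A difference in these genes was not detectable at this depth. Fscn1 and Zbtb46, which dendritic cells share with other cells, were the abundant genes of the list at 21.4 ± 0.570 and 18.3 ± 0.345 CPM in Con, and neither passed.

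Partners of podoplanin, reelin and LYVE1 gave 11 genes, of which 2 fell and 9 did not pass. The 2 calls compare with 12.0% of all genes tested, and the median log2 fold change was 0.08. Vldlr, a receptor of reelin that also takes up lipoproteins in muscle, fell from 418.9 ± 13.7 to 335.8 ± 3.66 CPM (log2 -0.32, SE 0.04, adjusted p = 5.2e-09, edgeR) and passed under all 17 alternatives. Has3, a hyaluronan synthase, fell from 8.42 ± 0.942 to 6.11 ± 0.802 CPM (log2 -0.46, adjusted p = 0.0074) and lost its call when Con replicate 1 or 3, or EX replicate 1 or 3, was left out, with DESeq2, and with limma on log2 of FPKM or TPM, 8 of 17 alternatives in all. Clec1b, the CLEC-2 receptor for podoplanin and a platelet gene, had at most 1 count in any library. Cd44, the widely made hyaluronan receptor related to LYVE1, was at 9.80 ± 0.537 CPM in Con and 10.4 ± 0.947 CPM in EX (log2 0.08, adjusted p = 0.693).

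Since LYVE1 is also made by macrophages, 12 genes of LYVE1-positive tissue macrophages were read beside it. Of these, 8 rose, none fell and 4 did not pass (8 called, against 12.0% of all genes tested). The median log2 fold change was 0.81. All EX values lay above all Con values for 10 of the 12, against 13.4% of all rows. The summed level was 161.3 to 167.3 CPM in Con and 204.0 to 218.0 CPM in EX. Cbr2, a carbonyl reductase of resident macrophages, rose from 22.3 ± 2.37 to 40.0 ± 2.75 CPM (log2 0.85, SE 0.07, adjusted p = 2.9e-13, edgeR), and Csf1r, the receptor that macrophages need to survive, from 5.32 ± 0.703 to 10.1 ± 0.597 CPM (log2 0.93, SE 0.12, adjusted p = 7.2e-08, edgeR). Folr2 (log2 1.11), Pf4 (1.29), C1qa (0.89), F13a1 (0.77), Mrc1 (0.56) and Gas6 (0.19) rose as well, with adjusted p-values of 0.00062, 0.00015, 6.9e-06, 3.9e-06, 0.00063 and 0.0035, and Gas6 lost its call under 6 of 17 alternatives. Cd163 (log2 0.38, adjusted p = 0.121), Adgre1 (log2 0.60, adjusted p = 0.0806), Timd4 (log2 1.19, adjusted p = 0.293) and Stab1 (log2 -0.04, adjusted p = 0.765) did not pass. The part of macrophages in the Lyve1 difference was not tested.

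Genes of blood vessel endothelium, some of which also makes Flt4, gave 1 rise and 6 falls among 12. The 7 calls compare with 12.0% of all genes tested, and the median log2 fold change was -0.17. Flt1, a VEGF receptor, fell from 163.2 ± 2.02 to 135.4 ± 1.04 CPM (log2 -0.27, SE 0.04, adjusted p = 2.3e-06, edgeR), and Cdh5, the cadherin of endothelial junctions, from 201.7 ± 9.58 to 168.5 ± 7.96 CPM (log2 -0.26, SE 0.04, adjusted p = 1.2e-05, edgeR). Ptprb, Pecam1, Egfl7 and Kdr fell by 0.23, 0.17, 0.18 and 0.14 on the log2 scale, and Cldn5, a tight junction gene, rose by 0.26, a call lost under 9 of 17 alternatives. The list's summed level was 1109.7 to 1142.8 CPM in Con and 975.4 to 1002.6 CPM in EX. The 7 calls became 4 when Con replicate 2, or EX replicate 1 or 2, was left out, 3 without EX replicate 3, and 11 with library totals in place of TMM. The part of blood endothelium in the Flt4 values was not tested.

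A piece of hind leg can hold a lymph node, where Ccl21 genes are also highly expressed. Markers of its cells were near 0, and the part of a lymph node in the Ccl21 values was not tested. None of the 14 lymph node genes measured was called, none exceeded 14 counts in any library, and their summed level was 1.57 to 3.35 CPM in Con and 1.33 to 1.65 CPM in EX. Without adjustment for multiple tests, 1 of the 14 was under 0.05 in the edgeR fit, Cd79a at 6, 2 and 4 counts in the Con libraries against 1, 2 and 0 in EX, and no alternative called any of them. The T cell genes Cd3e, Cd3d and Cd3g had at most 2 counts, and the B cell gene Ms4a1 at most 3. Glycam1 and Madcam1, which mark the vessels of a lymph node, were not analysed here.

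Fibroblast and perineurial genes, read beside Pdpn and Reln, gave 1 rise (Cd55, log2 0.28, adjusted p = 1.1e-05) and 11 genes that did not pass among 12. Of all genes tested, 12.0% were called. The list's summed level was 590.9 to 643.3 CPM in Con and 609.5 to 635.2 CPM in EX. The calls became 2 when Con replicate 1 or 3, or EX replicate 2, was left out, and 4 with library totals in place of TMM. Of 8 fat cell genes, 6 rose, 1 fell and 1 did not pass (7 called, against 12.0% of all genes tested). Their median log2 fold change was 1.25. Cfd, the adipokine adipsin, rose from 10.2 ± 0.511 to 25.0 ± 1.40 CPM (log2 1.29, SE 0.08, adjusted p = 6.1e-17, edgeR), and Cidec, a protein of lipid droplets, from 1.58 ± 0.365 to 4.53 ± 0.917 CPM (log2 1.50, SE 0.20, adjusted p = 9.5e-08, edgeR), and Adipoq, Retn and Plin1 rose by 1.19, 1.55 and 1.21 on the log2 scale, although Plin1 lost its call under 9 of 16 alternatives. Lep, the leptin gene, was also called higher, at 1, 2 and 0 counts in the Con libraries against 6, 11 and 9 in EX, and since no Con library exceeded the floor of 3 counts its fold is not given. The call of Lep was lost without EX replicate 2 (adjusted p = 0.0548, edgeR). Car3, which muscle fibres also make and which held most of the list's counts, fell by 0.53 on the log2 scale (adjusted p = 1.3e-16), so that the summed level was 1235.3 to 1295.8 CPM in Con and 951.6 to 991.7 CPM in EX. Fabp4, which endothelium also makes, did not pass (log2 -0.09, adjusted p = 0.147). The part of fat tissue in the Ccl21, Lyve1 and Mmrn1 differences was not tested.

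Muscle fibre genes defined the tissue, as its label states, with a summed level of 154480 to 160700 CPM in Con and 166480 to 174300 CPM in EX. Of these 8 genes 3 rose (Acta1, Actn3 and Pvalb), 1 fell (Mb) and 4 did not pass (4 called, against 12.0% of all genes tested). With limma on log2 of FPKM or TPM the 4 calls became 1, and all 3 rises lost theirs, and Mb lost its call without EX replicate 1 or EX replicate 3. Over the 123 genes in the lists that were measured, 39 were called, 21 higher and 18 lower. Of all genes tested, 12.0% were called, 6.08% higher and 5.96% lower.

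**Figure D4:**
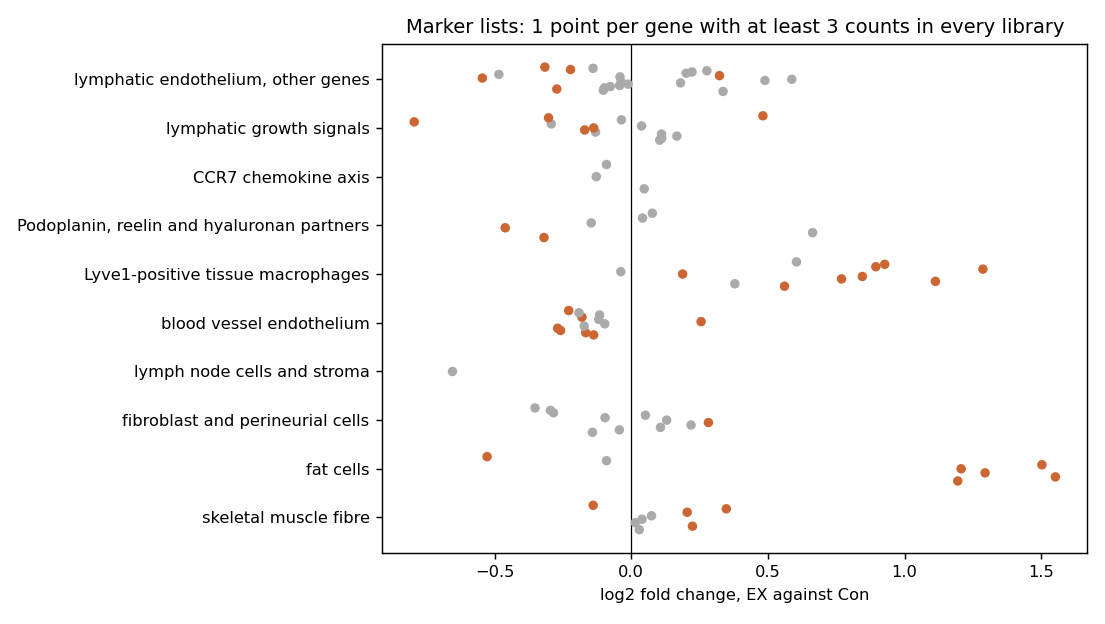
Log2 fold change of EX against Con (horizontal axis) of the genes in each list (rows) with at least 3 counts in every library; 1 point is 1 gene, coloured where its adjusted p-value was under 0.05, and vertical scatter within a row only separates points. Most macrophage and most fat cell genes lie to the right of 0, blood vessel endothelial genes mostly to the left, and other lymphatic genes on both sides.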

How the data were processed

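RNA sequencing of hind leg muscle gave 1 library per mouse, 3 Con and 3 EX. The authors deposited, in 1 table without gene positions, estimated counts per gene and library, which are not normalized, and the FPKM and TPM values they derived from them. The study's text names HISAT and GRCm39, whereas the submitters' processing notes name cutadapt, MultiQC, featureCounts and GRCm38.p6, and the tool that gave counts that are not whole is not given in the sources used here. The 6 columns of group means were not used. Sequences came from RefSeq (GRCm38.p6) and GENCODE (GRCm38) and carry the positions of those builds only.

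Estimated counts were rounded and fitted over the whole table with edgeR 4.0.16 (glmQLFit, glmQLFTest; R 4.3.3) after TMM scaling, without a filter and two-sided, with Benjamini-Hochberg adjustment over all genes and a threshold of 0.05. CPM are from this fit. The pipeline was tested on simulated data. Alternatives were DESeq2 1.42.0, limma 3.58.1 (voom, and log2 of FPKM plus a pseudocount of 0.1 or 1 and of TPM plus 0.1, a scale that understates changes of low genes), median-ratio scaling, library totals, filters, unrounded counts, a replicate block, and each library left out in turn. With 3 mice against 3 an exact permutation test cannot go below p = 0.1, so none was used. Samples of a group were separate mice, and no pair agreed within sampling noise.

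The 8 genes and the lists were chosen with earlier results of these data known. The text names all 8 genes, rows identical to a Ccl21 row, rows of that family and of Ccl19, list genes past the threshold or with the highest counts, and the 3 nearest genes by profile. Other list genes, named for their role or because their groups did not overlap, were chosen after their values were seen. Results of items withheld for evaluations are not reported here.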

Additional observations from a re-analysis of the deposited data

How the results depend on the processing

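Against 2013 genes called, DESeq2 gave 1174, limma on log2(FPKM + 0.1) gave 1116 and limma on log2(FPKM + 1) gave 1105. Leaving out 1 library gave 1125 to 1757, with 1125 without EX replicate 1, 1290 without EX replicate 2 and 1148 without EX replicate 3. Of the 8 genes described, 5 were called, 3 with a filter of a mean of 1 FPKM, which removes Ccl21b and Mmrn1 by construction, and 4 to 5 with a library left out. Their log2 fold changes kept their sign under every alternative that gave one, at 1.67 to 2.0 for Ccl21a, 1.16 to 2.09 for Ccl21c, 0.80 to 1.72 for Lyve1, 0.52 to 1.88 for Mmrn1, 0.20 to 0.52 for Pdpn, -0.30 to -0.14 for Flt4 and -0.44 to -0.10 for Reln. The low ends of Lyve1 and Mmrn1 came from pseudocounts on FPKM or TPM. The listed genes called, 39 of 123, ranged from 26 to 47. Replicate numbers gave no sign of a pairing, as deviations of libraries with the same number correlated at -0.0428, -0.0371 and -0.00538. Libraries with different numbers correlated at -0.0218 to 0.0581. With 3 libraries per group these values cannot exclude a pairing. A replicate block called 1856 genes, 5 of the 8 and 39 listed genes. Under 20 counts, as for most CCR7 and lymph node genes, only large differences could have passed.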

Other observations

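The genes that neighbour the Ccl21 copies in the same repeated block of chromosome 4 also held counts that were not whole. How reads were split among them was not tested. Gm13306 was at 17.6, 22.32 and 0 counts in the Con libraries and at 0, 20.21 and 0 in EX, and its near copy Ccl27b, a gene of the chemokine CCL27, was at 24.57, 16.8 and 49.13 in Con and at 64.89, 12.88 and 36.11 in EX. Both sets of values swung between libraries of 1 group, and their sums were 42.17, 39.12 and 49.13 in Con and 64.89, 33.09 and 36.11 in EX. Ccl27a had a log2 fold change of -0.04. Il11ra1, the receptor gene of interleukin 11, lay at 0.14 on the log2 scale of edgeR (adjusted p = 0.1145), and Il11ra2 and Gm13305 held identical counts, 0.65, 0.69 and 0.7 in the Con libraries and 1.05, 2.8 and 3.12 in EX. These rows were named after their values were seen.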
